A study of Mus musculus with 24 samples.

Results

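Messenger RNA was measured for Acta2, the transgelins Tagln and Tagln2, and a set of contractile actin-filament genes in 8 lines of B16-F10 mouse melanoma cells. The genes were chosen by name: Acta2, Tagln, Tagln2, Cnn2, Cnn3, Cald1, Tpm1, Tpm2, Tpm4 and Myl9. Of these 10 symbols, 9 were among the 12010 genes of the expression table, and Tagln was not among them, so it is not analysed here. Acta2 and Tagln2 were picked because they had 0 reads in parental cells and more in KO cells. Their differences between lines are therefore given as a description, with no test. For the other 7 genes no rule on their own values was used, but they too were chosen with earlier results of these data known.

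Acta2 encodes smooth muscle alpha-actin, an actin of contractile cells such as smooth muscle and myofibroblasts. Transgelins and calponins are related actin-binding proteins, tropomyosins lie along the actin filament, and caldesmon (Cald1) restrains myosin on it. Myl9 encodes a regulatory light chain of the myosin that pulls on these filaments. Many genes of this kind are known targets of serum response factor (SRF) with its MRTF cofactors, which bind a DNA sequence called the CArG box, and some also of TEAD factors with YAP and TAZ.

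The lines were B16F10-luc2 cells, a melanoma line carrying luciferase, as parental cells with wild-type genotype, and 7 lines that lacked members of the MITF family of transcription factors. These were the single knockouts (KO) of MITF, TFE3 and TFEB, the double knockouts (DKO) TFEB/TFE3, MITF/TFE3 and MITF/TFEB, and the triple knockout (TKO) of MITF, TFEB and TFE3. Every line had 3 libraries, giving 24 in all. TFEB and TFE3 were knocked out with Cas9 in parental or MITF KO cells, and the MITF KO cells, which carry a frameshift, may still make some truncated MITF. KO cells were clonally isolated, so differences between clones and differences between genotypes cannot be told apart. The study does not say whether the TKO was isolated separately from the MITF/TFEB DKO, so these lines may not be independent of each other. Nothing in the labels says that the 3 libraries of a line came from separate cultures, and the p-values then measure only the spread between these libraries.

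Libraries held 18300902 to 26667877 reads on genes, sequenced from the 3′ end of the messenger RNA, so that counts do not grow with transcript length and isoforms that share a 3′ end are not told apart. Values are CPM, reads of a gene for every 1e+06 reads of its library, scaled by the trimmed mean of M-values (TMM). Tfe3 lay at 8.01 to 21.7 CPM in the libraries of lines without TFE3 and at 31.1 to 62.5 in the others. Tfeb lay at 2.06 to 5.27 CPM without TFEB and at 7.87 to 22.7 in the others. Mitf messenger RNA overlapped between lines without MITF (326 to 1470 CPM) and with it (646 to 903), and a 3′ count does not read a frameshift. All 10 melanocyte lineage markers were in the table, with summed levels of 15872 to 40722 CPM over the 24 libraries.

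The stretch of 250 bases before the RefSeq start of transcription is shown for 4 genes, the pair with 0 reads in parental cells and the 2 genes with a CArG box. The sequences are from RefSeq (GRCm38.p6), each matched exactly once to mm39, whose positions are given, and they read 5′ to 3′ on the strand of the gene. For several of these genes the GENCODE models begin upstream of the RefSeq start, so part of a window can be transcribed. Capitals mark the motifs found.
Acta2, chr19:34232774-34233023, minus strand: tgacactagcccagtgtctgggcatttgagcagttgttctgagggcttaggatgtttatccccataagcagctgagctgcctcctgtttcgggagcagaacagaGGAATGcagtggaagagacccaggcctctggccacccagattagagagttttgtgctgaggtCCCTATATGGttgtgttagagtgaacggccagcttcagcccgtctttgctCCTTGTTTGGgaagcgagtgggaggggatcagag
Tagln2, chr1:172327563-172327812, plus strand: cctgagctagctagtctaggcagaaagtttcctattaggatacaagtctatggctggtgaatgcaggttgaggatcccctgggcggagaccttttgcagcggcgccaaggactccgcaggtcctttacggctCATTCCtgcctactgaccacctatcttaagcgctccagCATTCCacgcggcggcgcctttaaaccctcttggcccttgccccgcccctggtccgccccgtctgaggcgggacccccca
Cnn2, chr10:79824184-79824433, plus strand: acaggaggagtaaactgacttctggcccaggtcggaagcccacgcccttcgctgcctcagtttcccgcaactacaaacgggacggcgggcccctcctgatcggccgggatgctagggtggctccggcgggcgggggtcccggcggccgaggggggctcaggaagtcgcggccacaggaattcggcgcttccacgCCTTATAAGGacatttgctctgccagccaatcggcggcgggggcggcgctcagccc
Myl9, chr2:156617134-156617383, plus strand: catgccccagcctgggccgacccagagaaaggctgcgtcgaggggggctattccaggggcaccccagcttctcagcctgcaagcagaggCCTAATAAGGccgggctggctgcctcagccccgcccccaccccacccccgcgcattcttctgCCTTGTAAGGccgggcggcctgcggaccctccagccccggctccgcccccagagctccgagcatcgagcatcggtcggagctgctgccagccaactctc

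Motifs were searched on both strands in these windows for all 9 genes, 8 of them with a single window and Cald1 with a pair, and in 32851 mouse promoters of the same length. Any other start sites of these genes were not searched. A CArG box was present in Cnn2, from base -56 to -47 before the start, and in Myl9, from -161 to -152, against 1.5% of all promoters. A CArG-like box, with a single C or G among its central letters, was searched after the strict motif had given no match in Acta2. It was present at -84 to -75 and at -34 to -25 in Acta2 and at -99 to -90 in Myl9, against 7.2% of all promoters. CATTCC, the core of TEAD sites, was present in Acta2, Tagln2, Tpm1 and 1 of the Cald1 promoters, against 12.6% of all promoters. CACGTG and TCATGTG, letters bound by the MITF family, were in none of the 10 windows, against 6.0% and 3.3% of all promoters. The matches are a description of these letters only.

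Acta2 messenger RNA (chr19:34217737-34232990, minus strand) separated the lines that lacked both MITF and TFEB from all others. No read was counted in any library of the parental, TFE3 KO or TFEB KO cells, where 3 reads, the limit that a count of 0 allows, correspond to 0.134 CPM in a parental library on average. The TFEB/TFE3 DKO held 0 to 3 reads per library. In the MITF/TFEB DKO the libraries lay at 129, 159 and 205 CPM (164 ± 38.6, SD, n = 3), and in the TKO at 70.6, 92.1 and 94.0 CPM (85.6 ± 13.0, n = 3). The MITF KO lay at 1.42, 2.41 and 2.50 CPM (26 to 60 reads per library), and the MITF/TFE3 DKO at 0.706, 0.754 and 1.37 CPM (16 to 30 reads). Set against 3 reads in each parental library, the means were at least 1231-fold higher in the MITF/TFEB DKO, 641-fold in the TKO, 15.8-fold in the MITF KO and 7.06-fold in the MITF/TFE3 DKO. Libraries of neighbouring lines in the order MITF/TFEB DKO, TKO, MITF KO, MITF/TFE3 DKO and TFEB/TFE3 DKO did not overlap.

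Differences of Acta2 between KO lines are a description too, since its levels in KO cells entered the choice of the gene. They are on the scale of log2(CPM + 1), on which the changes of low genes are understated. Acta2 was higher by 5.73 in the MITF/TFEB DKO than in the MITF KO and higher by 6.40 than in the MITF/TFE3 DKO. The TKO was also above the MITF/TFE3 DKO, by 5.48, and above the TFEB/TFE3 DKO, by 6.34. From the MITF/TFEB DKO to the TKO the log2 difference was -0.92, and it was -1.08 without replicate 3 of the MITF/TFEB DKO. Between the MITF KO and the MITF/TFE3 DKO it was -0.67 in limma and -1.18 in edgeR on reads.

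Tagln2 (chr1:172327426-172334947, plus strand), which encodes an actin-binding transgelin found outside smooth muscle, took another order. It was highest in the MITF KO, at 24.7, 25.1 and 33.8 CPM (27.8 ± 5.12, n = 3), while the parental and TFEB/TFE3 DKO libraries had 0 reads. The TKO lay at 4.30, 4.34 and 5.99 CPM (4.88 ± 0.965). The MITF/TFEB DKO lay at 0.358, 1.60 and 2.43 CPM and the MITF/TFE3 DKO at 0.366, 0.498 and 0.989, and these 2 lines overlapped. The TFEB KO had at most 4 reads and the TFE3 KO at most 2 reads in a library. Against 3 reads in each parental library the mean was at least 208-fold higher in the MITF KO, 36.5-fold in the TKO, 10.9-fold in the MITF/TFEB DKO and 4.63-fold in the MITF/TFE3 DKO.

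Both double knockouts made in MITF KO cells had less Tagln2 than the MITF KO itself, with no overlap between libraries. The log2 difference from the MITF KO was -3.64 where TFEB was lost too and -4.16 where TFE3 was lost too. The TKO stood higher than the MITF/TFEB DKO by 1.34 and higher than the MITF/TFE3 DKO by 1.87. The first of these differences was 0.97 without replicate 3 of the MITF/TFEB DKO, whose Tagln2 level was the lowest of its line. Between the MITF KO and the MITF/TFEB DKO, Acta2 and Tagln2 thus differed in opposite directions.

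**Figure D1:**
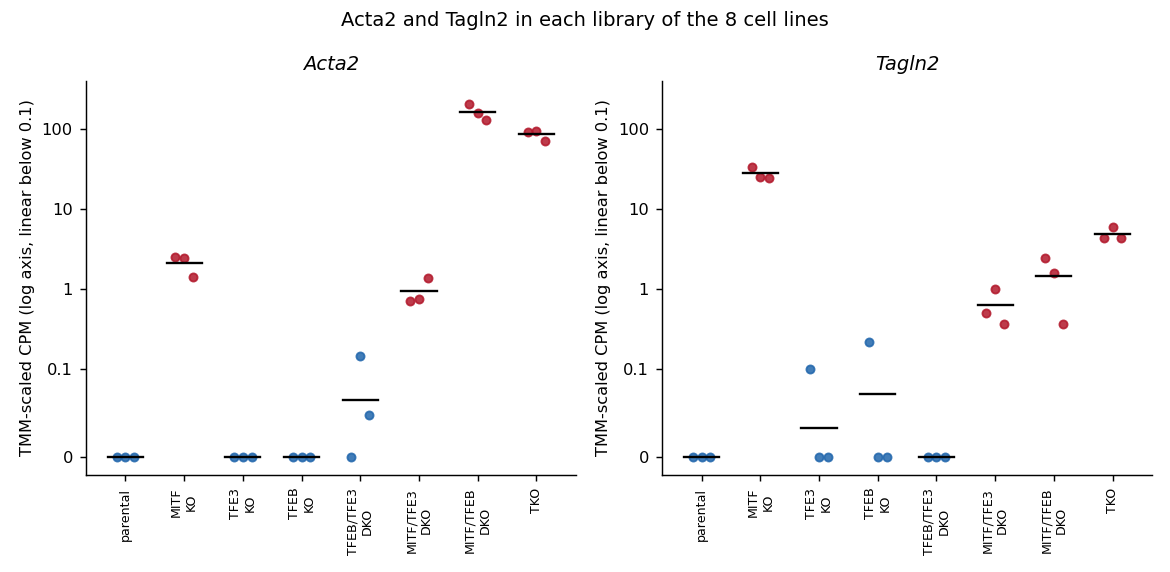
Levels of Acta2 (left) and Tagln2 (right) in TMM-scaled CPM, on a log axis that is linear below 0.1, for the 3 libraries (points) and their mean (line) of each cell line, red for lines without MITF and blue for lines with it. Acta2 was highest in the MITF/TFEB DKO at 164 CPM, and Tagln2 was highest in the MITF KO at 27.8 CPM.

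The other 7 genes were tested on log2(CPM + 1) with limma and Benjamini-Hochberg adjustment over 12010 genes. Calls required at least a fold change of 2 and an unadjusted p under 0.05, the threshold of the study.

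The calponins differed from each other. Cnn2 (chr10:79824410-79831896, plus strand), a calponin of non-muscle cells, lay at 48.5, 56.2 and 61.2 CPM in parental cells. It lay at 147, 167 and 194 CPM in the MITF/TFE3 DKO, at 260, 319 and 331 in the MITF/TFEB DKO and at 434, 492 and 500 in the TKO. These 3 lines did not overlap with each other or with the parental cells. Cnn2 rose by 1.59 (SE 0.16, adjusted p = 4.4e-08), 2.43 (adjusted p = 1.1e-11) and 3.08 (adjusted p = 1.1e-13) in these lines against parental cells. The MITF KO stood at 71.9 ± 8.65 CPM, a log2 difference of 0.37 (adjusted p = 0.069). Cnn3 (chr3:121220146-121251856, plus strand), another calponin of non-muscle cells, ranged only from 252 CPM in the MITF/TFE3 DKO to 395 in the TKO and passed the fold threshold in no comparison. Its TKO and MITF/TFEB DKO libraries were all above those of the other 6 lines, with log2 differences from parental cells of 0.37 (adjusted p = 9.9e-05) and 0.30 (adjusted p = 0.00071).

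Cald1 (chr6:34575435-34752408, plus strand), caldesmon, was among the most abundant of the genes and was highest in the MITF/TFEB DKO. Parental libraries held 562, 603 and 646 CPM, those of the MITF/TFEB DKO 2045, 2206 and 2443, and those of the TKO 1756, 1852 and 1865. Both lines stood clear of all others, and Cald1 rose by 1.88 (SE 0.10, adjusted p = 1.2e-13) and 1.60 (adjusted p = 1.6e-12) against parental cells. The MITF KO lay between, at 879 ± 25.4 CPM, with a log2 difference of 0.54 (adjusted p = 9.3e-05), while the MITF/TFE3 DKO overlapped with the TFEB KO, which in turn overlapped with parental cells. The TFE3 KO was the lowest line, at 435 ± 45.9 CPM, with a log2 difference of -0.47 (adjusted p = 0.0016) that did not reach the fold threshold.

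The tropomyosins split in the same lines. Tpm4 (chr8:72884018-72906987, plus strand), a tropomyosin of non-muscle cells, lay at 193, 212 and 231 CPM in parental cells and rose by 1.92 (SE 0.12, adjusted p = 3.0e-12) to 803 ± 17.5 CPM in the TKO. It also rose by 1.22 (adjusted p = 8.9e-09) to 495 ± 22.2 CPM in the MITF/TFEB DKO. In the MITF KO it stood at 212 ± 23.1 CPM, with a 95% interval of the log2 difference from -0.25 to 0.25. Tpm1 (chr9:66929870-66956953, minus strand), which makes both muscle and non-muscle tropomyosins, went from 1040 ± 35.3 CPM in parental cells to 2188 ± 6.43 in the TKO, a rise of 1.07 (SE 0.08, adjusted p = 1.0e-10). In the MITF/TFEB DKO it reached 1594 ± 183 CPM, a log2 difference of 0.61 (adjusted p = 1.1e-06) that was short of the fold threshold, and in the MITF/TFE3 DKO it was lowest, at 781 ± 29.0 CPM.

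Tpm2 (chr4:43514697-43524949, minus strand), a tropomyosin best known from muscle, was close to the detection limit. It had 6 to 17 reads per library in parental cells, the next lowest of the genes there after Acta2 and Tagln2, and 0 reads in all 6 libraries of the TKO and MITF/TFEB DKO. The MITF KO had at most 3 reads, and the MITF/TFE3 DKO had 8 to 28. The log2(CPM + 1) difference from parental cells was -0.53 in the MITF/TFEB DKO as in the TKO (adjusted p = 0.018 and 0.017) and did not reach the fold threshold, which edgeR on reads did (adjusted p = 0.00063 and 0.00070).

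Myl9 (chr2:156617084-156623579, plus strand), the regulatory light chain, was low, fell in 3 of the lines without MITF and rose in the other one. Parental libraries lay at 2.34, 3.41 and 3.54 CPM. The log2 change was -1.36 in the MITF KO (SE 0.21, adjusted p = 2.6e-05), -1.50 in the MITF/TFEB DKO (adjusted p = 3.0e-06) and -1.31 in the TKO (adjusted p = 1.8e-05), so that it fell in these lines, to between 0.443 and 0.681 CPM on average. In the MITF/TFE3 DKO it lay at 8.27, 10.7 and 11.2 CPM, above every other library, and rose by 1.44 (adjusted p = 1.4e-05). With 2 to 32 reads per library in the 3 lowest lines, its fold change depends on the pseudocount: with a pseudocount of 5 none of these 4 changes reached the fold threshold.

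**Figure D2:**
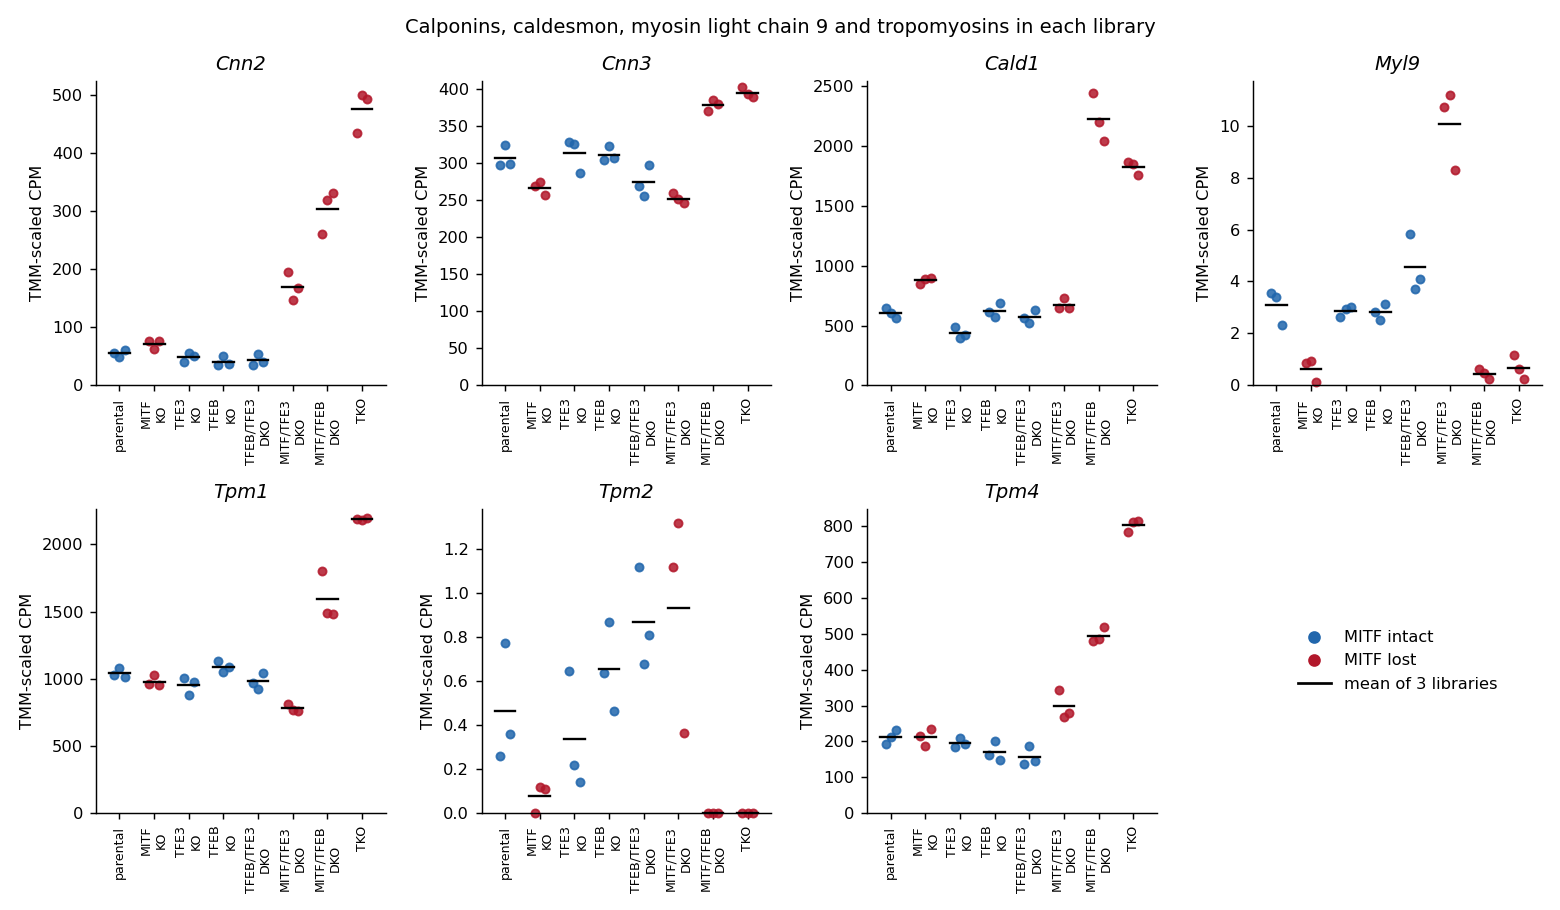
Levels in TMM-scaled CPM, on linear axes from 0, of the 7 genes other than Acta2 and Tagln2, for the 3 libraries (points) and their mean (line) of each line, red for lines without MITF and blue for lines with it. Cnn2, Tpm1 and Tpm4 were highest in the TKO, Cald1 was highest in the MITF/TFEB DKO, and Myl9 was highest in the MITF/TFE3 DKO.

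Of the 7 genes tested against parental cells, none was called in the lines that kept MITF. This holds for the TFE3 KO (0.366% of all genes called up and 1.34% down), the TFEB KO (0.192% and 0.591%) and the TFEB/TFE3 DKO (0.575% and 0.383%). At an unadjusted p under 0.05 in limma, 1, 2 and 3 of the 7 genes differed in these lines, and edgeR called 0 in each. In the MITF KO, 1 fell and 0 rose (2.99% and 3.29% of all genes), and edgeR called 2 down and 0 up. In the MITF/TFE3 DKO, 2 rose and 0 fell (3.50% and 2.37%). In the MITF/TFEB DKO, 3 rose and 1 fell (8.78% and 4.94%), and in the TKO, 4 rose and 1 fell (8.28% and 6.41%). The genes that rose in the TKO were Cnn2, Cald1, Tpm1 and Tpm4, and Tpm1 was the one of these not called in the MITF/TFEB DKO. The 7 comparisons share the parental libraries and are not independent of each other.

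The same 7 genes were counted between KO lines. From the MITF KO to the MITF/TFEB DKO, 3 rose (Cnn2, Cald1 and Tpm4) and 0 fell, against 6.91% and 3.99% of all genes. At an unadjusted p under 0.05 in limma 5 differed, all higher, and edgeR called 1 down, Tpm2. From the MITF KO to the MITF/TFE3 DKO, 2 rose (Cnn2 by 1.22 and Myl9 by 2.80) and 0 fell, against 3.39% and 1.67%. Here 6 differed at an unadjusted p under 0.05, and edgeR called 3 up and 0 down. The step from the MITF/TFEB DKO to the TKO called 0 genes in limma and in edgeR, against 0.316% up and 1.98% down, and 4 differed at an unadjusted p under 0.05. Among them, Cnn2, Tpm1 and Tpm4 had differences of 0.65, 0.46 and 0.70 in that step (adjusted p = 0.0069, 0.00026 and 0.00020), short of the fold threshold.

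The 2 double knockouts made in MITF KO cells differed in 3 of the 7 genes. In the MITF/TFEB DKO, which keeps TFE3, Cald1 (by 1.72) and Tpm1 (by 1.02) were higher than in the MITF/TFE3 DKO, which keeps TFEB, and Myl9 was lower (-2.94, adjusted p = 1.4e-10), against 5.70% of all genes higher and 4.05% lower. The Tpm1 difference was 0.93 without replicate 1 of the MITF/TFEB DKO. Between the TKO and the MITF/TFE3 DKO, 4 were higher and 1 lower (5.69% and 5.75%), and between the TKO and the TFEB/TFE3 DKO, 4 were higher and 1 lower (8.89% and 7.02%). Against the line that differs by MITF alone, 3 rose and 1 fell in the MITF/TFEB DKO over the TFEB KO (9.32% and 5.35%). In the MITF/TFE3 DKO over the TFE3 KO, 2 rose and 0 fell (5.38% and 2.62%), with 3 up and 0 down in edgeR, and all 7 differed at an unadjusted p under 0.05.

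**Figure D3:**
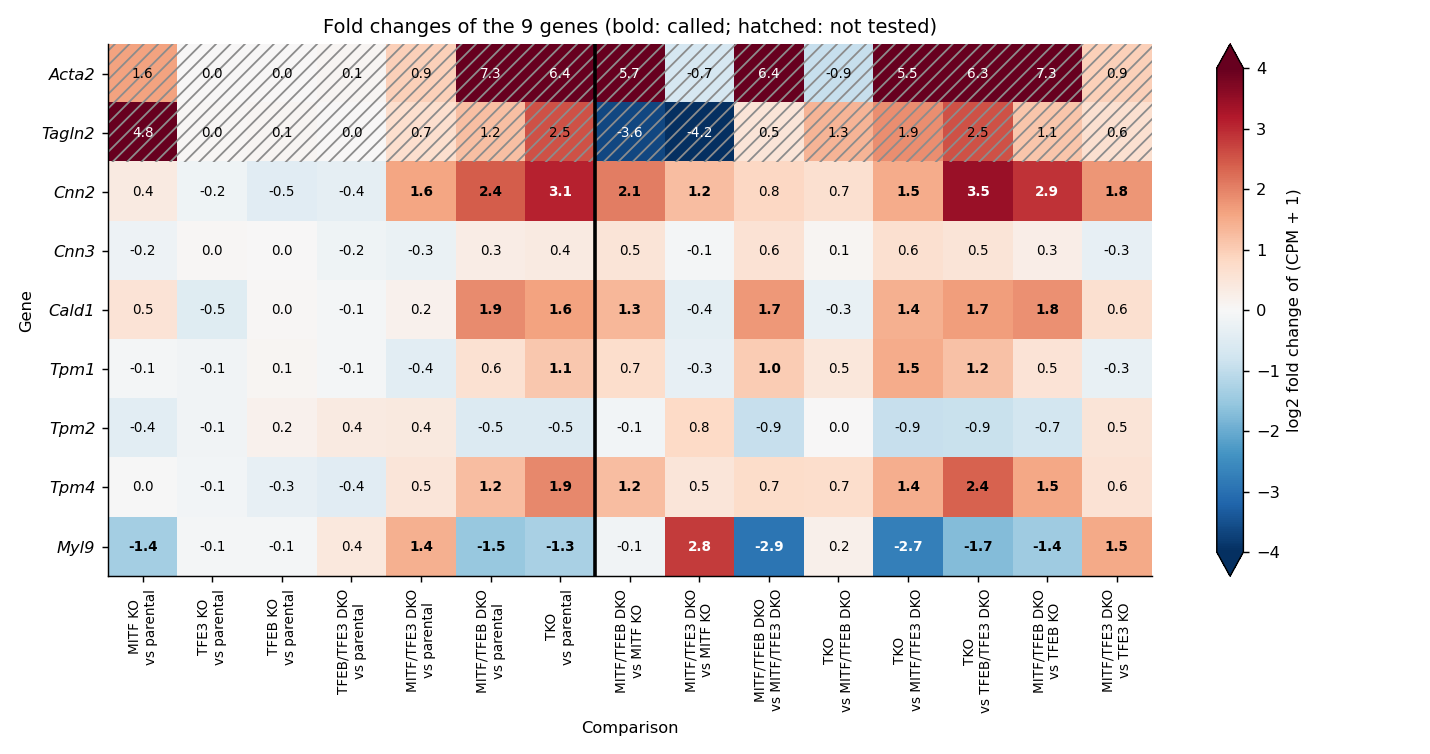
Log2 fold change of (CPM + 1) for the 9 genes in the 7 comparisons with parental cells (left of the black line) and the 8 comparisons between KO lines, with bold values for called genes and hatching where no test was made. Acta2 differed most between the lines that lacked both MITF and TFEB and the others, and Myl9 was higher in the MITF/TFE3 DKO but lower in the MITF/TFEB DKO than in parental cells.

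Whether losing TFEB had another effect in cells without MITF than in cells with it was tested as an interaction for the 7 genes. The difference between these effects was 2.51 for Cnn2 (SE 0.22, adjusted p = 5.9e-09), 1.29 for Cald1 (adjusted p = 7.7e-08) and 1.55 for Tpm4 (adjusted p = 1.5e-07), and all 3 were called, against 7.56% of all genes up and 4.77% down. For losing TFE3, 2 genes were called, Cnn2 at 1.41 (adjusted p = 6.7e-05) and Myl9 at 2.86 (adjusted p = 1.7e-07), against 4.10% up and 2.10% down. Cald1 had an interaction of 0.09 with TFE3 loss, with a 95% interval from -0.19 to 0.37.

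Summed over the 9 genes, the level was 2221 ± 52.2 CPM in parental cells, 5778 ± 58.2 in the TKO, 5169 ± 353 in the MITF/TFEB DKO, with 1951 to 2440 in the other KO lines. The cytoplasmic actins Actb and Actg1 together stood at 7828 ± 247 CPM in parental cells, 10093 ± 207 in the TKO and at 8163 ± 879 in the MITF/TFEB DKO. The sum was lowest in the MITF/TFE3 DKO, at 5661 ± 429. Nearly all of it was Actb, since line means of Actg1 lay only between 3.62 CPM (TFE3 KO) and 9.68 CPM (MITF KO). The make-up of the tropomyosin reads shifted toward Tpm4, whose share of Tpm1, Tpm2, Tpm3 and Tpm4 reads was 11.8% ± 1.09 in parental cells, 22.0% ± 0.313 in TKO cells, 19.8% ± 1.48 in the MITF/TFE3 DKO, and 19.0% ± 1.89 where MITF and TFEB were lost. Tpm3 went from 30.5% ± 0.558 to 18.2% ± 0.559 in the TKO. Cnn2 made up 15.3% ± 2.05 of the Cnn2 and Cnn3 reads in parental cells and 54.6% ± 2.33 in the TKO.

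**Figure D4:**
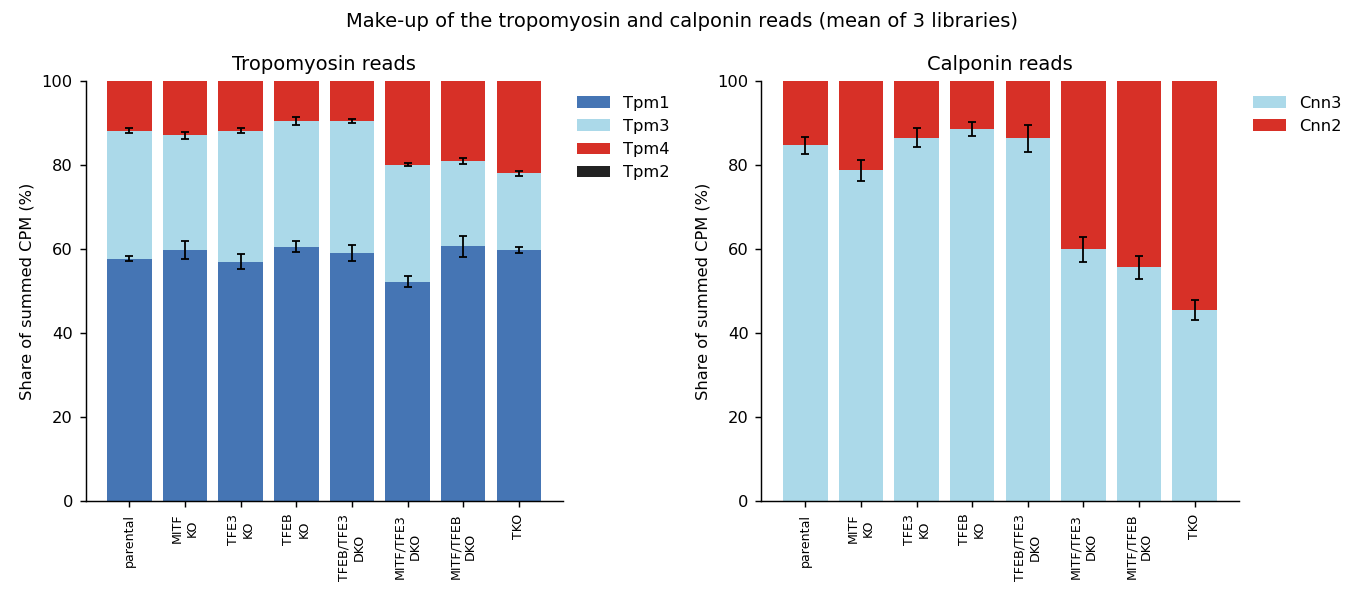
Share in percent of the summed CPM of Tpm1 to Tpm4 (left) and of Cnn2 and Cnn3 (right) by line, as means of 3 libraries, with error bars at the top of a segment showing the SD of that segment's share (Tpm2 is too low to be seen). From parental cells to the TKO, the Tpm4 share went from 11.8% to 22.0% and the Cnn2 share from 15.3% to 54.6%.

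Other genes of the actin machinery were taken from lists of related genes, some of which hold genes in common. Among other actins and thin-filament relatives, 7 of 12 were in the table. Lmod1, a leiomodin that nucleates actin in smooth muscle, rose from 6.05 to 81.1 CPM in the TKO (3.55, adjusted p = 4.1e-16). Actg2, smooth muscle gamma-actin and a close relative of Acta2, was at 0.419 CPM in parental cells and rose to 9.91 CPM in the MITF/TFE3 DKO (2.95, adjusted p = 2.9e-11), and was lower by 2.43 in the MITF/TFEB DKO than there (adjusted p = 3.4e-10). The line with the most Actg2 was thus not the one with the most Acta2. Tmod1, which caps the slow-growing end of the filament, rose by 1.41 in the MITF KO.

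Myosin genes were called up in all lines without MITF, 5 of 7 in TKO cells (8.28% of all genes), as many in the MITF/TFEB DKO (8.78%), 3 of 7 where MITF and TFE3 were lost (3.50%, and 4 by edgeR) and 1, Myh14, in the MITF KO (3.29%). Myh14, a non-muscle myosin heavy chain, went from 0.594 CPM in parental cells to 19.2 in the TKO (3.67, adjusted p = 1.9e-13), Myl6, an essential light chain, from 107 to 441 (2.03), and Mylk, the kinase that phosphorylates the regulatory light chain, from 400.2 to 1504 (1.91). Of 23 stress fibre crosslinkers and adhesion plaque genes, 11 rose in TKO cells (8.28% of all genes) and 7 in the MITF/TFEB DKO (8.78%), and none was called down by limma or edgeR (2 and 3 were lower at an unadjusted p under 0.05). In the MITF KO 2 rose (3.29% of all genes), with 4 up and 0 down in edgeR. There 8 genes of the list were higher and 7 lower at an unadjusted p under 0.05. In the MITF/TFE3 DKO 1 rose (3.50%), with 3 up and 0 down in edgeR. Here 9 were higher and 5 lower at an unadjusted p under 0.05. Palld (3.26), Flna (2.46) and Zyx (2.14), which encode palladin, filamin A and zyxin of the stress fibre, had the largest changes, in the TKO.

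Among 20 other SRF and MRTF target genes, 13 rose in TKO cells (8.28% of all genes) and 9 in the MITF/TFEB DKO (8.78%), and none was called down by limma or edgeR (0 and 1 were lower at an unadjusted p under 0.05), with a median log2 change of 1.26 in the TKO against 0.01 over all genes. In the MITF KO 1 rose (3.29% of all genes), with 4 up and 0 down in edgeR. There 8 genes of the list were higher and 2 lower at an unadjusted p under 0.05. In the MITF/TFE3 DKO 1 rose (3.50%), with 3 up and 1 down in edgeR. Here 9 were higher and 6 lower at an unadjusted p under 0.05. Ccn1 (3.35), Filip1l (2.89) and Ccn2 (2.85) changed most, in the TKO. Of the genes that rose there, Vcl, Fhl2, Flna, Zyx, Csrp1 and Tgfb1i1 were already counted among the stress fibre genes. Myh9 was already counted among the myosin genes, and Srf is also in the list of factors below, so these counts are not separate from each other. Of 17 YAP and TEAD target genes, 8 rose and 1 fell in the MITF/TFEB DKO (8.78% and 4.94% of all genes), with 2 down in edgeR and 4 lower at an unadjusted p under 0.05. In the TKO 8 rose and 0 fell (8.28% and 6.41%), with 1 down in edgeR and 2 lower at an unadjusted p under 0.05, and Ankrd1 rose by 2.57. Ccn1 and Ccn2 belong to both lists. Of 9 genes encoding the factors themselves, Srf (1.22) and Tead1 (1.29) rose in TKO cells and 0 fell (8.28% and 6.41% of all genes). The median log2 change of these 9 genes in TKO cells was 0.01, as over all genes. Where MITF and TFEB were lost, limma and edgeR called 0 of the 9 (limma 8.78% up and 4.94% down over all genes). There 2 were higher and 2 lower at an unadjusted p under 0.05. Tead2 fell by 1.34 (SE 0.43, adjusted p = 0.0185) in the MITF KO, where 0 rose (2.99% down and 3.29% up).

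**Figure D5:**
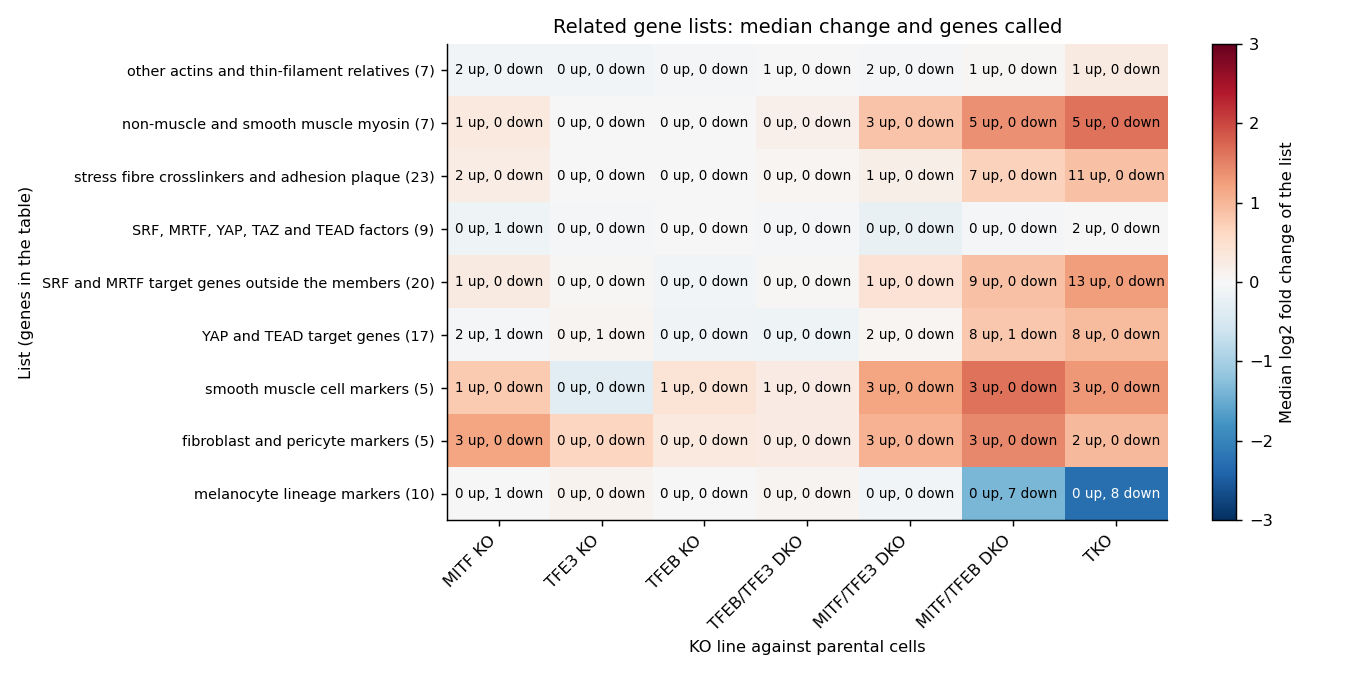
Median log2 fold change (colour) and number of genes called up and down in lists of related genes, with the number of their genes in the table, for each KO line against parental cells. The SRF and MRTF target list had 13 of 20 genes up in the TKO, and the melanocyte list had 8 of 10 down.

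Markers of other states moved in lines without MITF, and some also in lines that kept it. Melanocyte lineage genes fell, 7 of 10 in the MITF/TFEB DKO (4.94% of all genes) and 8 of 10 in the TKO (6.41%), led by Tyr (-3.83), Trpm1 (-3.07) and Slc45a2 (-3.06). Their summed level was 26554 to 27422 CPM in parental libraries, 17244 to 19721 in the MITF/TFEB DKO and 15872 to 16913 in the TKO, and it was higher than in parental cells in the MITF KO, at 38793 to 40722. That sum was mostly Dct, at 17751 CPM in parental cells and 29022 in the MITF KO. In the MITF KO limma called 0 of the 10 up and 1, Gpr143, down (3.29% and 2.99% of all genes). There 4 were higher and 3 lower at an unadjusted p under 0.05. Of 10 smooth muscle markers 5 were in the table, and the defining genes Myh11, Cnn1, Myocd, Synpo2 and Itga8 were not. The sum of those 5 was 426 to 481 CPM in parental cells, 723 to 840 in the MITF KO, 886 to 1131 in the MITF/TFE3 DKO, 1256 to 1525 in the MITF/TFEB DKO and 1598 to 1717 in the TKO, and was mostly Mylk. In the last 3 of these lines 3 of 5 were called up (3.50%, 8.78% and 8.28% of all genes), and in the MITF KO 1 was (3.29%). Among the genes called, Lmod1 and Actg2 were already counted with the thin-filament relatives and Mylk with the myosin genes. Among lines with MITF, 1 was called up in the TFEB KO (Des, 0.192%) and 1 in the TFEB/TFE3 DKO (Lmod1, 0.575%). The sum was 504 to 713 CPM in the TFEB KO, 492 to 624 in the TFEB/TFE3 DKO and 290 to 389 in the TFE3 KO. Of 12 fibroblast and pericyte markers 5 were in the table, and Col3a1, Dcn, Lum, Pdgfra, Thy1, Fap and Rgs5 were not. The sum of those 5 was 13.9 to 16.4 CPM in parental cells, 44.0 to 57.2 in the MITF/TFEB DKO and 46.5 to 57.7 in the MITF KO. It was 28.3 to 31.6 in TKO cells and 26.5 to 27.8 in the MITF/TFE3 DKO. In these KO lines 3, 3, 2 and 3 of the 5 were called up (8.78%, 3.29%, 8.28% and 3.50% of all genes), and 3, 3, 3 and 4 by edgeR. Lines with MITF were also above parental cells, the TFE3 KO at 24.5 to 29.3 CPM, the TFEB KO at 20.5 to 22.1 and the TFEB/TFE3 DKO at 19.1 to 23.5. There limma called 0 up in each, and edgeR called 3, 0 and 1 up. In that list Postn rose by 2.54 in the MITF KO, Col1a1 by 2.53 in the MITF/TFEB DKO and Pdgfrb by 1.73 in the TKO. The part of such cells or states in the results was not tested, and in bulk samples fewer cells of a type and less RNA per cell cannot be told apart.

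The genes with the profile most like that of Acta2 over the 8 line means, among 10199 genes with a line mean of at least 5 CPM, were Casp12 (Pearson r = 0.997), Cap1 (0.996), Cdadc1 (0.995), Sorbs2 (0.995) and Gal3st2 (0.995). Casp12 went from 0.0581 CPM in parental cells to 12.3 in the TKO and to 26.7 in the MITF/TFEB DKO. Sorbs2, which encodes an adaptor of stress fibres, went from 0.358 to 101.4 and 110.4 CPM. Cap1 (50.6 to 90.7 and 104.9 CPM) and Cdadc1 (22.0 to 32.3 and 33.9 CPM) were already expressed in parental cells and changed much less. For Tagln2 the most alike were Fbxo11 (0.959), Birc6 (0.959), Akap7 (0.952), Armcx3 (0.951) and Cant1 (0.950). All of these were expressed in parental cells. From there to the MITF KO, Fbxo11 went from 26.3 to 42.7 CPM and Armcx3 from 5.49 to 15.1. The correlation compares the shape of profiles, not the size of changes. The points are means of lines that were normalised together, and the profile of Acta2 rests mainly on its 2 high lines and that of Tagln2 on the MITF KO.

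Genes on either side of each gene along its chromosome were compared in the same way. The median log2 change against parental cells of 100 genes around Acta2 was -0.69 (MITF/TFEB DKO) and -0.68 (TKO), opposite in sign to Acta2. Over all genes the median was 0.01 in each of these lines. Around Tagln2 it was 0.65 and 0.73 in these lines and 0.12 in the MITF KO, where Tagln2 was highest. Around Tpm1 it was -0.27 and -0.25, around Tpm2 -0.32 and -0.20, and around Cnn2, Cnn3, Cald1, Tpm4 and Myl9 it lay between -0.12 and 0.16 in both lines. No stretch of 50 bases in the last 300 of any of the genes was shared with a transcript of another gene. Genes on the opposite strand overlap the 3′ ends of Acta2 (Stambpl1), Tpm4 (Gm26586) and Myl9 (5730471H19Rik). None of these 3 is among the 12010 genes, and since the strand setting of the counting was not given in the sources used here, reads from the opposite strand cannot be told apart.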

How the data were processed

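RNA of 24 libraries (8 lines, 3 each) was made into 3′-end libraries with the QuantSeq Forward kit. Per the labels, the authors' processing notes name FastQC 0.11.9, Trim Galore 0.6.5, cutadapt 2.10, STAR 2.7.8a, edgeR and mm39. The deposited values are a normalised signal, TMM-scaled CPM with totals of 933263 to 1081081, and 99.99% of them were whole reads (tolerance 0.02) once the scaling was undone. The lowest chi-square per degree of freedom between libraries of a line was 4.61, so no pair agreed within sampling noise. The annotation and counting tool were not given in the sources used here.

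Here log2(CPM + 1) of all 24 libraries was fitted in 1 model of cell line with limma 3.58.1 (R 4.3.3), with a variance trend and no covariate. Adjusted p-values are Benjamini-Hochberg over all 12010 genes. edgeR 4.0.16 (quasi-likelihood) was run on the recovered reads as an alternative. Other alternatives were pseudocounts of 0.25 and 5, genes with a mean of at least 5 CPM, median-of-ratios scaling, only the libraries compared, an adjusted p threshold, a replicate block and each replicate left out in turn. The limma and edgeR scripts were tested on simulated data. With 3 libraries against 3, depth and library number limit the precision of genes under 1 CPM, and read-count limits cover counting error only.

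The genes and lists were chosen with earlier results of these data known. Named were the 10 chosen genes, the 3 genes of each related list with the largest change among those called against parental cells, the 5 genes most like Acta2 and Tagln2, and defining markers. Counts between KO lines had been planned over 9 genes and are given over 7, without Acta2 and Tagln2, whose KO levels entered their choice. The result of 1 related list is not reported here. Positions are mm39 from GENCODE, and neighbours are up to 100 genes with a mean of at least 5 CPM.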

Additional observations from a re-analysis of the deposited data

Results flagged for a closer look

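For 5 results the effect of losing a second factor differed between cells with and without MITF, by the interaction term of the limma fit. For TFEB loss the differences of the log2 effects were 2.51 for Cnn2, 1.29 for Cald1 and 1.55 for Tpm4. For TFE3 loss they were 1.41 for Cnn2 and 2.86 for Myl9. All 5 passed the fold threshold and had an adjusted p of at most 6.7e-05. Cnn2 went from 71.9 CPM in the MITF KO to 304 in the MITF/TFEB DKO, and from 55.3 in parental cells to 40.5 in the TFEB KO. Myl9 went from 0.627 CPM in the MITF KO to 10.1 in the MITF/TFE3 DKO, and from 3.10 in parental cells to 2.87 in the TFE3 KO. The KO cells were clonally isolated, so an effect of the clone cannot be told apart from that of the second loss.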

How the results depend on the processing

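Of 500 counts of called genes recomputed under the alternatives, 463 stayed within 1.5 times the count reported and 37 did not. Among the fold changes of single genes, 28 gained a call, 8 lost it, and none was of the opposite sign for a called gene. A further 96, all of Acta2 or Tagln2, moved by at least the residual SD of the fit, and 2067 were labelled the same. With edgeR on reads, the count that fell was 2 in place of 1 in the MITF KO, MITF/TFEB DKO and TKO against parental cells and in 4 of the comparisons between KO lines, and 1 in place of 0 from the MITF KO to the MITF/TFEB DKO and in the interaction with TFEB loss. With a pseudocount of 0.25, 2 in place of 1 fell in 7 of these comparisons. Tpm2, near the detection limit, is the gene called there and not by limma with a pseudocount of 1. Over all 12010 genes against parental cells, edgeR on reads called 726 up and 551 down in the MITF KO where limma called 395 and 359. It called 170 and 381 in the TFE3 KO (limma 44 and 161), 117 and 192 in the TFEB KO (23 and 71), 199 and 160 in the TFEB/TFE3 DKO (69 and 46), 817 and 489 in the MITF/TFE3 DKO (420 and 285), 1400 and 848 in the MITF/TFEB DKO (1054 and 593), and 1345 and 1088 in the TKO (994 and 770). With a pseudocount of 5, no gene fell (0 in place of 1) in 5 comparisons and 1 in place of 2 rose in the MITF/TFE3 DKO against parental cells and over the TFE3 KO. Requiring a mean of 5 CPM removes Tpm2 and Myl9, so that the Myl9 calls drop out, leaving 0 in place of 1 or 1 in place of 2 in 11 counts. Median-of-ratios scaling, using only the libraries compared and an adjusted p threshold moved none of the counts.

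With single replicates left out, the number lower ranged from 1 to 2 against the MITF/TFE3 DKO, both for the TKO and for the MITF/TFEB DKO, with 2 without replicate 3 of the MITF/TFE3 DKO. The number higher in the MITF/TFEB DKO than in the MITF/TFE3 DKO ranged from 1 to 2, with 1 without replicate 1 of the MITF/TFEB DKO. The replicate numbers showed no pairing of the samples on average. Deviations from the line means correlated at a mean of 0.0222 between libraries with the same number (84 pairs, -0.66 to 0.77). Otherwise the mean was -0.0126 (168 pairs, -0.762 to 0.729). Deviations cancel within a line, so these means are not independent of each other, and pairing between only some of the lines was not tested. With a replicate block, the counts were the same as without it, for example 4 up and 1 down in the TKO. Depth limits Tpm2, Myl9 and, outside their high lines, Acta2 and Tagln2, where libraries held few reads.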
